A study of Mus musculus with 172 samples.

Results

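The genes described here make, remove or sense malonyl-CoA, or move fatty acyl groups into the mitochondrion on carnitine. They were chosen by name as 8 genes: *Mlycd*, *Acacb*, *Cpt1a*, *Cpt1b*, *Cpt1c*, *Cpt2*, *Slc25a20* and *Crat*. Of these, 7 were listed in all 4 tables of expression values, among 14896 genes in cortex and 14107 genes in liver. The other member, *Cpt1b*, the form of carnitine palmitoyltransferase 1 known from muscle, was not analysed here.

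Long-chain fatty acids are burned inside mitochondria, whose inner membrane their CoA esters cannot cross. Carnitine palmitoyltransferase 1 on the outer membrane swaps CoA for carnitine, the carrier encoded by *Slc25a20* exchanges the acylcarnitine for free carnitine across the inner membrane, and carnitine palmitoyltransferase 2 gives the acyl group back to CoA. Malonyl-CoA, made by the acetyl-CoA carboxylases, blocks the first of these steps and is removed by malonyl-CoA decarboxylase, the product of *Mlycd*. Liver oxidises fatty acids in fasting, whereas brain relies mainly on glucose and ketone bodies, and its neurons carry a brain form of carnitine palmitoyltransferase 1, *Cpt1c*.

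The BXD lines are inbred mice that each carry a fixed mixture of the C57BL/6J and DBA/2J genomes. Male mice of 11 to 14 weeks were either left undisturbed (Ctr) or kept awake for 6 h from light onset (SD), and all were killed at zeitgeber time 6. RNA of cortex and of liver was pooled from mice of the same line and treatment, and each pool gave 1 library. Pools of 3 mice are named for part of the libraries, and the authors name BXD79, BXD85 and BXD101 as exceptions with fewer mice. The p values measure the spread between pools, not between mice. Each combination of tissue and condition held 39 pools: 33 BXD/RwwJ lines, 2 C57BL/6J pools, 2 DBA/2J pools, and 1 pool each of the reciprocal hybrids C57/BL/J x DBA/2J F1 and DBA/2J x C57/BL/J F1. The 2 pools of a parental strain were sampled at the start and at the end of the study. All values are log2 of counts scaled to library size (log2 CPM), scaled separately by tissue, so no level was tested between cortex and liver.

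Cortex libraries held 18995492 to 28998853 counted reads in Ctr and 19025159 to 28685060 in SD. Liver libraries were shallower, with 5034166 to 8269401 reads in Ctr and 4681101 to 8009362 in SD. A gene without a read stood at -4.51 log2 CPM in Ctr and -4.52 in SD cortex, and at -2.77 and -2.75 in liver, so Ctr and SD tables may also have been scaled apart. Some libraries stood apart: 4 of 156 were the highest or the lowest of their 39 at more than 15% of all genes, where an average library would be so at 5.13%. They were the Ctr cortex libraries of BXD56 (19%) and BXD90 (36.6%), the Ctr liver library of DBA/2J x C57/BL/J F1 (19.1%) and the SD liver library of BXD70 (44.9%). The last 2 were also the shallowest of their groups. Calls that change without these pools are given with and without them.

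In the mm9 annotation *Mlycd* spans chr8:121918778-121935002 on the plus strand, *Acacb* chr5:114596544-114700770 on the plus strand, *Cpt1a* chr19:3323301-3385732 on the plus strand and *Cpt1c* chr7:52214743-52230184 on the minus strand. *Cpt2* spans chr4:107576586-107596215 on the minus strand, *Slc25a20* chr9:108564429-108586972 on the plus strand and *Crat* chr2:30255991-30271333 on the minus strand. No 2 members lie on the same chromosome. Of the exonic bases of *Crat*, 1.1% are shared with *Dolpp1* and 7.63% with Gm16323, both on the opposite strand, and the authors counted reads by strand. No stretch of 100 bases in the longest coding transcript of a listed member was found, read in the same direction, in a coding transcript of another gene.

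To compare levels between genes, CPM was divided by exonic length in kb. In Ctr cortex *Cpt1c* stood highest with a median of 39.9 CPM per kb, followed by *Crat* (11.8), *Mlycd* (8.14), *Cpt1a* (7.81), *Slc25a20* (5.28), *Cpt2* (2.15) and *Acacb* (0.610), whose product makes the malonyl-CoA at the mitochondrial surface. The ranges over 39 pools overlapped for *Crat* and *Mlycd* and for *Mlycd* and *Cpt1a*, and the other neighbours in this order did not overlap. In Ctr liver the mitochondrial path led, with *Cpt1a* at 105 CPM per kb, *Slc25a20* at 90.2 and *Cpt2* at 78.1, ahead of *Acacb* (44.2), *Mlycd* (36.6) and *Crat* (21.5). Each of these ranges overlapped with the next, although *Cpt1a* was above *Slc25a20* in 39 of 39 pools and *Cpt2* above *Acacb* in 39 of 39. Reads of the leading 3 rose less than in proportion to library size in Ctr liver, and no gene had more than 1.78 reads per exonic base in liver against 44.7 in Ctr cortex, so abundant liver genes may be held down in this order. The cause was not tested, nor its part in liver marker sums. For the changes after SD, the difference of log2 library totals was run as a covariate. *Mlycd* (0.08 log2), *Acacb* (0.16), *Cpt1a* (0.12) and *Cpt2* (0.05) then rose in liver with an adjusted p under 0.05 (limma). Beyond this, the part of the cause in the changes was not tested. *Cpt1c* was nearly silent in liver, at 0.477 CPM per kb and with no overlap with *Crat*. After SD the order was the same in liver, and in cortex *Cpt1a* (7.66 CPM per kb) and *Mlycd* (7.11) changed places, with *Cpt1a* higher in 20 of 39 pools.

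**Figure D1:**
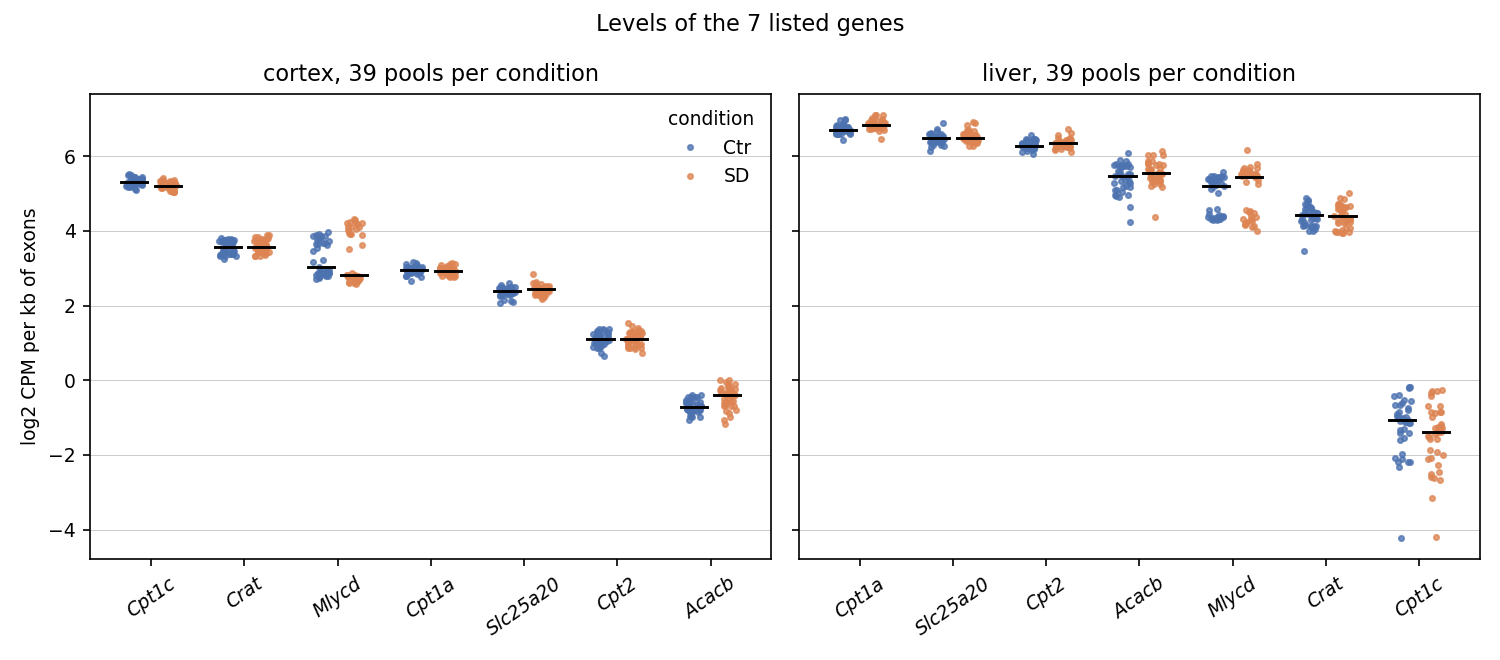
Level of each listed gene in every pool, as log2 of CPM per kb of exons, with a bar at the median of 39 pools, in Ctr (blue) and SD (orange). *Cpt1c* leads in cortex and is lowest in liver, and *Mlycd* falls into separate clouds in each tissue.

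The tissue labels were checked with marker genes. In cortex all 4 neuronal markers were listed, with a median summed level of 7870 CPM in Ctr pools, *Snap25* being the most abundant, and 2 of 5 hepatocyte markers were listed at a summed 16 CPM, *Alb*, *Apoa1* and *Tat* not among them. In liver all 5 hepatocyte markers were listed, at a summed 2440 CPM led by *Cps1*. Of the 6 markers of skeletal and heart muscle, 0 were listed in liver and 3 in cortex, at a summed 12.6 CPM. The 5 adipocyte markers were represented by *Cfd* alone in liver, at 1.53 CPM, and by none in cortex.

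After SD, 3 of the 7 members passed the paired test in cortex, 2 up and 1 down, where 76.3% of all genes passed it. In liver 4 of 7 passed, all up, where 53.9% of all genes passed. An adjusted p under 0.05 over all genes of the tissue counted as passing in limma's test of the paired change of a pool. The members' share was below that of all genes in cortex and near it in liver, and the call rate alone sets the group apart in neither tissue. The median change of the members was 0.04 log2 in cortex and 0.06 in liver, against -0.00973 and -0.00152 over all genes. In bulk tissue, fewer cells of a type and less RNA per cell cannot be told apart.

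*Mlycd* removes malonyl-CoA and so lifts the block on fatty acid entry. In cortex its lowest, median and highest levels were 4.29, 4.60 and 5.54 log2 CPM in Ctr pools (418 to 1071 reads) and 4.16, 4.41 and 5.89 in SD pools (371 to 1416 reads). The pools of both conditions overlapped, and the highest SD pool was a DBA/2J pool. The paired change ran from -0.50 in BXD90 through a median of -0.01 to 0.64 in BXD83, with a mean of 0.08 (standard error 0.040, adjusted p = 0.0812, limma, higher after SD in 19 of 39). Without BXD90 the mean was 0.09 and passed the test (adjusted p = 0.0282), as it did with voom on the recovered reads (0.13, adjusted p = 0.00389) and with the 4 BXD/TyJ lines added (0.09, adjusted p = 0.0222). In the 39 pools 19 rose and 20 fell, and the mean averages lines that moved in opposite directions by their range of *Mlycd* level, given below.

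In liver *Mlycd* stood at 5.87, 6.77 and 7.16 log2 CPM in Ctr pools and 5.58, 7.02 and 7.74 in SD pools. Its lowest SD pool was a DBA/2J pool and its highest was BXD70. The paired change ran from -0.31 in BXD89 through 0.11 to 0.71 in BXD70, and its mean of 0.09 (standard error 0.034, adjusted p = 0.0242) passed the test, and 27 of 39 pools rose. It kept passing without BXD70 (0.07, adjusted p = 0.0410). The rise was not general: both DBA/2J pools fell (-0.29 and -0.24), as did 9 of the 14 lines whose *Mlycd* is low in liver, and the C57BL/6J pools, high in liver, did not rise either (-0.12 and 0.00). Compared between conditions without pairing the pools of a line, it did not pass (adjusted p = 0.611).

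Over the 33 BXD/RwwJ lines *Mlycd* levels fell into separate ranges in each table. In cortex 19 Ctr lines lay between 4.29 and 4.75 log2 CPM and 14 between 5.13 and 5.54. After SD the same 19 lay between 4.16 and 4.44 and the same 14 between 5.48 and 5.82. In liver the order was turned around: the 14 lines high in cortex lay between 5.87 and 6.16 log2 CPM in Ctr, and the 19 lines low in cortex between 6.69 and 7.16. After SD these ranges were 5.72 to 6.15 and 7.04 to 7.74 in liver. All 33 lines thus kept their side in cortex after SD and had the opposite side in liver in both conditions. The paired changes left no gap wide enough to count as separate ranges, but they followed the ranges closely. In cortex 17 of the 19 lines of the low range fell (changes from -0.50 to 0.10) and 13 of the 14 of the high range rose (-0.01 to 0.64). In liver 19 of the 19 lines low in cortex rose (0.04 to 0.71), and of the 14 high in cortex 5 rose and 9 fell (-0.31 to 0.22). The ranges thus lay farther apart after SD in each tissue, which is a description, since ranges and changes come from the same values.

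**Figure D2:**
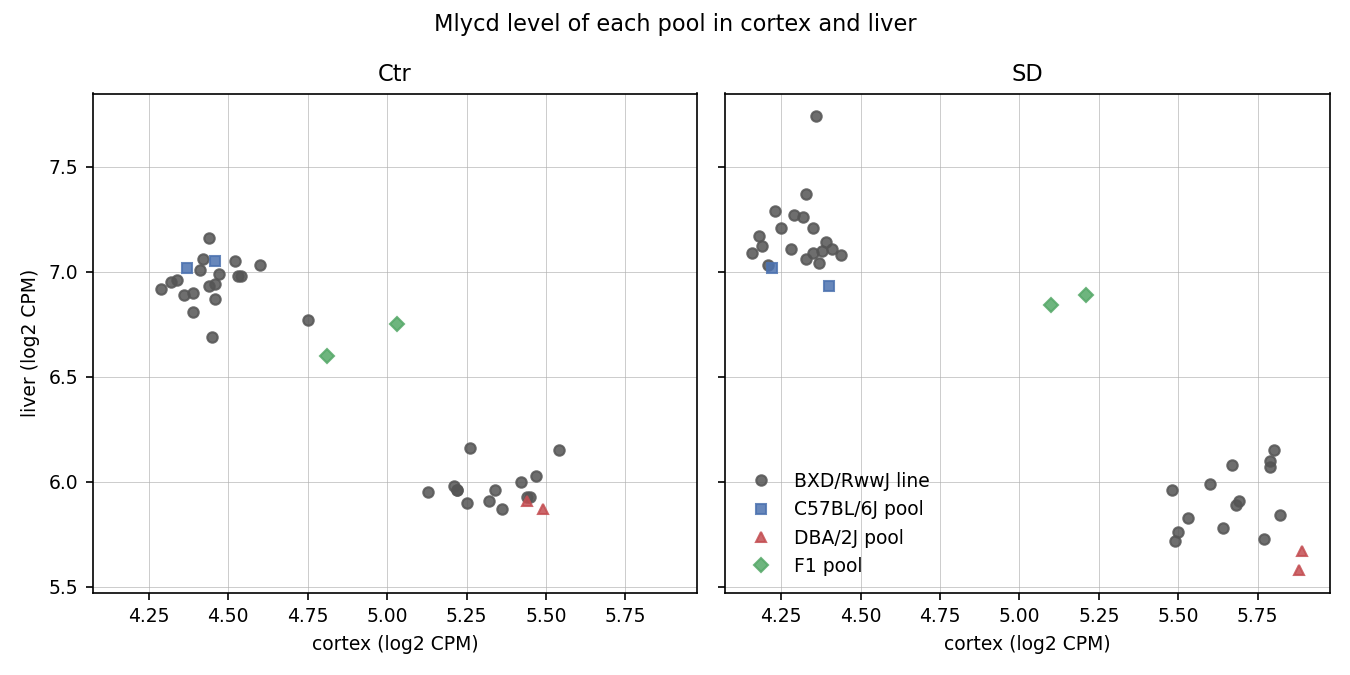
*Mlycd* level of each pool in cortex (horizontal) and liver (vertical), both in log2 CPM, in Ctr (left) and SD (right), with parental and F1 pools marked. Lines low in cortex are high in liver, the C57BL/6J pools lie with or near the lines low in cortex, the DBA/2J pools with or beyond those high in cortex, and the F1 pools between.

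The parental strains lay on opposite sides too. In Ctr cortex *Mlycd* was at 4.46 and 4.37 log2 CPM in the C57BL/6J pools, 5.49 and 5.44 in the DBA/2J pools, and 4.81 and 5.03 in the F1 pools. In Ctr liver the C57BL/6J pools were at 7.05 and 7.02, the DBA/2J pools at 5.87 and 5.91, and the F1 pools at 6.60 and 6.75. The F1 pools stood between the parents in cortex and in liver. Comparing DBA/2J with C57BL/6J over both conditions, 4 of 7 members differed in cortex, where 25.5% of all genes did, and 1 of 7 in liver, where 17.9% did. *Mlycd* was higher in DBA/2J by 1.31 log2 in cortex (standard error 0.086, adjusted p = 2.71e-08, limma) and lower in liver, with a difference of -1.25 (standard error 0.066, adjusted p = 1.62e-08), with 4 of 4 libraries of a strain on the same side of the other strain each time. This test counts the Ctr and SD library of a pool as separate, and with each pool averaged over both, *Mlycd* (adjusted p = 1.85e-07 in cortex, 9.68e-06 in liver) and, in cortex, *Crat* (7.96e-05) passed, so 2 of 7 members in cortex. The difference between the tissues was itself tested, a comparison added after the values were seen, and 2 of 7 members passed it where 11.3% of genes listed in both tissues did. *Mlycd* was among them, its strain difference in liver minus that in cortex being -2.56 log2 (standard error 0.16, adjusted p = 0.000181).

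*Acacb*, acetyl-CoA carboxylase 2, supplies the malonyl-CoA that *Mlycd* removes. In cortex it rested on few reads, 99 to 187 in Ctr pools, at 2.19, 2.55 and 2.88 log2 CPM (lowest, median, highest), and stood at 2.10, 2.88 and 3.28 in SD pools. The SD pools reached above the Ctr pools at the top, the lowest SD pool being BXD101, and overlapped with them below. Its paired change was the largest of the members in cortex, 0.26 log2 (1.20-fold, standard error 0.046, adjusted p = 2.36e-06), 31 of 39 pools rose, and the values ran from -0.54 in BXD101 to 0.81 in DBA/2J x C57/BL/J F1. Of all cortex genes, 77.1% had a smaller absolute change. In liver *Acacb* was abundant, at 7.50, 8.73 and 9.37 log2 CPM in Ctr pools and 7.65, 8.82 and 9.41 in SD pools. BXD89 was lowest in Ctr and BXD70 lowest in SD, and the conditions overlapped over most of their range. The liver change of 0.15 log2 (standard error 0.056, adjusted p = 0.0245) was a rise in 26 of 39 pools, from -0.60 in BXD73 to 0.95 in BXD89. It did not pass without the pairing (adjusted p = 0.121) or with the 4 BXD/TyJ lines added (0.11, adjusted p = 0.0738).

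*Cpt1a* encodes the malonyl-CoA-sensitive gate of liver and most other tissues. In cortex its levels were 4.77, 5.07 and 5.27 log2 CPM in Ctr pools and 4.86, 5.04 and 5.25 in SD pools, and its paired change was -0.01 (standard error 0.018, adjusted p = 0.537, higher after SD in 17 of 39). The ranges in cortex were almost the same in both conditions, BXD90 being the lowest Ctr pool. In liver it stood at 8.54, 8.82 and 9.10 log2 CPM in Ctr pools and at 8.57, 8.95 and 9.22 in SD pools. BXD70 was the lowest liver SD pool, although most pools were higher in SD than in Ctr. The liver rise of 0.12 log2 (1.09-fold, standard error 0.022, adjusted p = 1.08e-05) was seen in 33 of 39 pools, ran from -0.25 in BXD70 to 0.43 in BXD81, and passed in all alternatives run. Of all liver genes, 51.2% had a smaller absolute change.

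The brain form *Cpt1c*, which is known from neurons and has little transferase activity, went the other way. In cortex it was at 6.56, 6.78 and 6.98 log2 CPM in Ctr pools and 6.50, 6.68 and 6.87 in SD pools, with overlapping ranges. It fell by 0.09 log2 (0.938-fold, standard error 0.013, adjusted p = 2.75e-08), with lower values in 35 of 39 pools and changes from -0.34 in BXD67 to 0.11 in BXD98. Neuronal markers moved with it in cortex: the summed level of *Snap25*, *Syt1*, *Rbfox3* and *Slc17a7* was 7870 CPM in Ctr and 7380 in SD pools at the median and rose in 5 of 39 pools. The summed level of 4 astrocyte markers was 4860 and 5030 CPM and rose in 32 of 39, but *Slc1a2* makes up most of this sum. Median levels in Ctr and SD were 12.12 and 12.18 log2 CPM for *Slc1a2* and 6.10 and 6.20 for *Aldh1l1*. They were 7.73 and 7.75 for *Gja1*, and 6.97 and 6.95 for *Aqp4*, which did not rise. The part of these markers in the changes of *Cpt1c* and *Acacb* was not tested. In liver *Cpt1c* had 0 to 17 reads in a Ctr library and 0 to 16 in an SD library, with medians of 8 and 6, and 1 pool in each condition had 0 reads. At this depth its liver change of -0.31 log2 (standard error 0.17, adjusted p = 0.114, lower in 30 of 39 pools) was not resolved, its range of -2.67 to 3.38 being set by pools with 0 reads. It passed over the 33 BXD/RwwJ lines alone (-0.47, adjusted p = 0.0105), with all 43 pools (-0.38, adjusted p = 0.0465) and with the 2 pools of each parent averaged (-0.39, adjusted p = 0.0341).

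*Cpt2* and *Slc25a20* encode the inner-membrane steps of the shuttle. Their levels moved together over the liver lines, as described further on, so their RefSeq promoters (GRCm38.p6, 250 bases before to 50 after the start of the gene) are shown. *Cpt2* has chr4:107923540-107923839 on the minus strand and *Slc25a20* chr9:108661886-108662185 on the plus strand, both 5′ to 3′ with the letters CCGGAAGT in capitals.
Cpt2: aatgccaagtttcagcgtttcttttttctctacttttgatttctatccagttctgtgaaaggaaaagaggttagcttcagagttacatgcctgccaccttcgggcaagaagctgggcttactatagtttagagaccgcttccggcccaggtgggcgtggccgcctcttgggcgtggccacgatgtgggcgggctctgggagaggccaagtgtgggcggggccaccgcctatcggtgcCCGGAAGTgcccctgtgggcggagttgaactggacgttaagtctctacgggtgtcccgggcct
Slc25a20: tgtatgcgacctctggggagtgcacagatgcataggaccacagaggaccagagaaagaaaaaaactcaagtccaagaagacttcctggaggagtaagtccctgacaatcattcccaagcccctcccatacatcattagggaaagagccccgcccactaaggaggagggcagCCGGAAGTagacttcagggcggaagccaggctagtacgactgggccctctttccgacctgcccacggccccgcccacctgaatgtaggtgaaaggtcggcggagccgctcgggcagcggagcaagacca
Promoters matched 6 of 8 members, all but *Cpt1b* and *Crat*. The letters CCGGAAGT, the core of ETS-family motifs, were chosen after the sequences had been seen and occur on either strand in 3.89% of 32851 promoters of this length, and among the members in *Cpt2* and *Slc25a20*. The letters GGGCGG, the core of Sp-family motifs, occur in 35.7% of promoters and in *Cpt1a*, *Cpt1c*, *Cpt2* and *Slc25a20*, and the nuclear receptor letters AGGTCA in 16.3% and in *Acacb*, *Cpt1a* and *Cpt1c*. A match is a run of letters and was not tested as a binding site.

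In cortex *Cpt2* was at 1.90, 2.35 and 2.63 log2 CPM in Ctr pools, on 77 to 156 reads, and at 1.98, 2.35 and 2.78 in SD pools. The medians were equal, and the change was 0.02 log2 (standard error 0.039, adjusted p = 0.711, higher after SD in 19 of 39). In liver it was at 7.30, 7.53 and 7.82 log2 CPM in Ctr pools and 7.36, 7.61 and 7.97 in SD pools, with DBA/2J x C57/BL/J F1 highest in Ctr and BXD70 highest in SD. It rose by 0.06 log2 (1.04-fold, standard error 0.017, adjusted p = 0.00437) in 29 of 39 pools, a call lost without the pairing (adjusted p = 0.0604). *Slc25a20* stood at 2.91, 3.23 and 3.43 log2 CPM in Ctr cortex and 3.02, 3.27 and 3.67 in SD cortex, a change of 0.05 (standard error 0.025, adjusted p = 0.0823, higher after SD in 24 of 39) that passed with the 4 BXD/TyJ lines added (0.07, adjusted p = 0.0208). In liver it was at 6.98, 7.33 and 7.72 log2 CPM in Ctr pools and 7.10, 7.32 and 7.76 in SD pools, with nearly equal medians and a change of 0.04 (standard error 0.025, adjusted p = 0.165, higher after SD in 23 of 39).

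*Crat*, carnitine acetyltransferase, buffers acetyl-CoA and other short acyl groups as carnitine esters. In cortex it was at 5.69, 5.99 and 6.24 log2 CPM in Ctr pools and 5.75, 6.00 and 6.32 in SD pools. C57BL/6J was lowest in Ctr and DBA/2J highest in both conditions, and the conditions overlapped almost fully. Its paired change of 0.04 log2 (1.03-fold, standard error 0.014, adjusted p = 0.00841) was a rise in 27 of 39 pools, but it did not pass without the pairing (adjusted p = 0.367) or in the 33 BXD/RwwJ lines alone (0.03, adjusted p = 0.0831). In liver *Crat* was at 5.90, 6.85 and 7.30 log2 CPM in Ctr and 6.37, 6.82 and 7.45 in SD pools. BXD81 was the lowest Ctr pool, and the liver change was 0.02 (standard error 0.044, adjusted p = 0.746, higher after SD in 19 of 39). Between the parents *Crat* was higher in DBA/2J cortex by 0.46 log2 (standard error 0.042, adjusted p = 9.21e-07), with 5.76 and 5.69 log2 CPM in the Ctr C57BL/6J pools against 6.21 and 6.24 in the DBA/2J pools, which do not overlap. In liver the parents differed by -0.04 (adjusted p = 0.846), a value that was 0.19 in Ctr pools alone. The strain difference of *Crat* in liver minus that in cortex was -0.49 log2 (standard error 0.13, adjusted p = 0.0486). It stayed negative in 9 of 9 alternatives, from -0.31 in Ctr pools alone to -0.68 in SD pools alone, but passed only with median-centred libraries (adjusted p = 0.0454), and was 0.0589 to 0.291 in the others.

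*Cpt2* and *Cpt1c* also passed between the parents in cortex, less firmly. *Cpt2* was higher in DBA/2J by 0.32 log2 (standard error 0.11, adjusted p = 0.0407), with 2.57 and 2.63 log2 CPM against 2.43 and 2.35 in the Ctr pools. This call was lost without the second C57BL/6J pool (adjusted p = 0.244), without either DBA/2J pool (0.177 and 0.136), in Ctr pools alone (0.350), in SD pools alone (0.144), with the library total as covariate (0.114) and with pools averaged over conditions (0.0761). *Cpt1c* was lower in DBA/2J, with a difference of -0.13 (standard error 0.043, adjusted p = 0.0449), and its adjusted p lay between 0.0591 and 0.327 in the alternatives, so it passed in none of them. *Acacb*, *Cpt1a* and *Slc25a20* did not pass between the parents in cortex (adjusted p = 0.673, 0.562 and 0.252).

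**Figure D3:**
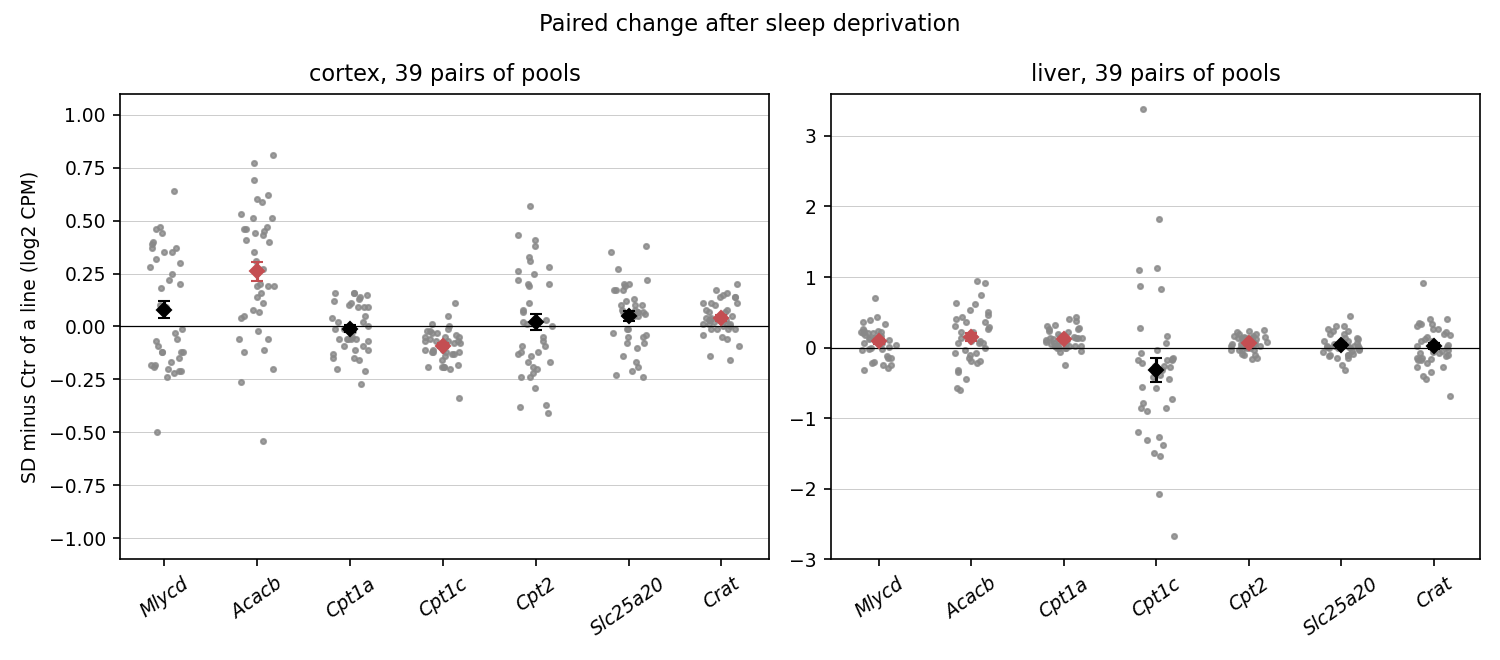
Paired SD minus Ctr change of each pool in log2 CPM (grey points, 39 pairs per gene) with its mean and standard error (diamond, red where the adjusted p was under 0.05), in cortex and liver on separate scales. Changes of *Acacb* and *Cpt1c* pass in cortex with means of 0.26 and -0.09, and *Cpt1a* leads in liver by its test with a mean of 0.12.

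An effect that passed in 1 tissue need not differ from the other, so the paired change in liver minus that in cortex was tested for each gene listed in both. Here 1 of 7 members passed, where 57.7% of all genes did. The *Cpt1a* response was higher in liver by 0.13 log2 (standard error 0.028, adjusted p = 9.11e-05, limma), in 32 of 39 pools, with differences from -0.24 through 0.12 to 0.48. Without the 4 pools with a library apart it was 0.15 (adjusted p = 2.59e-05). The *Acacb* responses of 0.26 in cortex and 0.15 in liver were not resolved from each other (-0.11, adjusted p = 0.228, liver above cortex in 17 of 39 pools), nor were those of *Cpt1c* (-0.22, adjusted p = 0.264), *Cpt2* (0.04, adjusted p = 0.425) and the others. *Cpt1c* passed in the 33 BXD/RwwJ lines alone (-0.37, adjusted p = 0.0368).

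The spread between lines was described by the standard deviation over the 33 BXD/RwwJ lines. *Mlycd* had the widest spread of the members in cortex, 0.45 log2 in Ctr and 0.69 in SD, wider than that of 91.9% and 97.2% of all genes. In liver its spread was 0.49 in Ctr and 0.65 in SD, wider than in 77.7% and 83.3% of genes, and only *Cpt1c*, with its few reads, spread more (0.59 and 0.87). *Acacb* was the next widest in liver over all 33 lines (0.40 in Ctr, 0.32 in SD). Its SD value includes BXD70, at 7.65 log2 CPM against 8.44 in the next lowest line, and its place without BXD70 was not tested. In cortex *Acacb* widened from 0.17 in Ctr to 0.31 in SD, which was not tested. The gate and the inner-membrane steps spread least: in Ctr liver the values were 0.11 for *Cpt1a*, 0.10 for *Cpt2* and 0.13 for *Slc25a20*, against a median of 0.20 over all genes. The Ctr liver reads of these 3 genes grew by less than the library totals, as given below, and how far this narrows their spread was not tested. *Crat* was in the middle, with 0.17 in cortex and 0.30 in liver in each condition.

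Ctr and SD pools of a line came from different mice, so a line difference that returns in both was seen in other mice. The authors aimed to pair SD and control mice of a line in the same cohorts. The part of shared cohorts in such a return was not tested. Over the 33 lines the Ctr and SD levels were related for 7 of 16 relations (adjusted p under 0.05 over the family), and over all genes the median r was 0.33 in cortex and 0.38 in liver. Apart from *Mlycd*, whose lines all kept their range and which was scored within ranges only, *Crat* was the steadiest in cortex, with Pearson r = 0.89 (permutation p = 1e-05, the smallest that 100000 resamples can give; adjusted p = 0.00016) and Spearman rho = 0.84 (p = 1e-05). *Cpt1c* followed in cortex with r = 0.70 (permutation p = 2e-05, adjusted p = 0.00016, rho = 0.73, p = 2e-05). Without the 2 lines farthest from the median, r was 0.88 for *Crat* and 0.73 for *Cpt1c*. Only *Mlycd* was checked for separate ranges. In Ctr cortex no line had a *Crat* level between 5.99 (BXD85) and 6.06 log2 CPM (BXD55), with the C57BL/6J pools below and the DBA/2J pools above. *Crat* was not scored within the sides of this gap, and its part in the r of *Crat* was not tested. *Cpt1a* in cortex had r = 0.45 (permutation p = 0.00781, adjusted p = 0.0208, rho = 0.48, p = 0.00527, and r = 0.43 without the 2 farthest lines), which did not pass without BXD56, BXD70 and BXD90 (r = 0.36, adjusted p = 0.0850). Cortex *Acacb*, *Slc25a20* and *Cpt2* did not pass (r = 0.31, 0.27 and 0.02).

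In liver the Ctr and SD levels were related for *Cpt2* (r = 0.63, permutation p = 0.00014, adjusted p = 0.000747, rho = 0.57, p = 0.00077, and r = 0.59 without the 2 farthest lines), but not with the library totals, described below, taken out (r = 0.29, adjusted p = 0.154). *Crat* had r = 0.52 (permutation p = 0.00182, adjusted p = 0.00728, rho = 0.57, p = 0.00069, and 0.60 without the 2 farthest lines). *Slc25a20* had r = 0.46 (permutation p = 0.00764, adjusted p = 0.0208, rho = 0.37, p = 0.0334, and 0.43 without the 2 farthest lines) and *Acacb* r = 0.42 (permutation p = 0.0171, adjusted p = 0.0391, rho = 0.36, p = 0.0375, and 0.33 without them). By rho the adjusted p of *Slc25a20* and *Acacb* was 0.0704, and *Acacb* did not pass without BXD56, BXD70 and BXD90 (r = 0.39, adjusted p = 0.0612). Within the 19 and 14 lines of each *Mlycd* range, Ctr and SD levels did not pass in cortex (r = 0.09 and 0.26) or in liver (0.41 and 0.20). Without the 2 farthest lines these were 0.23 and 0.73 in cortex and 0.38 and 0.51 in liver, and the rho of 0.51 in the 19 liver lines (p = 0.0269) had an adjusted p of 0.0704, so a relation within ranges is not settled. Apart from the opposite ranges of *Mlycd*, no member's level in cortex was related to its level in liver over lines, and over all genes the median r was 0.01 in Ctr and 0.05 in SD. With *Mlycd* taken within each range, the members' r lay between -0.18 and 0.24 in Ctr and between -0.13 and 0.45 in SD, and the adjusted p was 0.858 for all 16 relations.

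Library size moved with some of these levels in liver. Over the 33 lines *Cpt2* had r = -0.80 with the log2 library total in Ctr and -0.87 in SD, *Slc25a20* -0.73 and -0.76, and *Cpt1a* -0.56 and -0.10. Their reads grew by less than the totals: per log2 of library total, the log2 reads of *Cpt2* rose by 0.54 in Ctr liver, those of *Slc25a20* by 0.47 and those of *Cpt1a* by 0.69, where 1 would be in proportion. In SD liver these slopes were 0.41, 0.35 and 1.00. The SD values of *Cpt1a*, r of -0.10 and slope of 1.00, include BXD70. That line had the fewest reads (4681101) and the lowest *Cpt1a* level (8.57 log2 CPM), and no fit without it was run. These 3 genes had 0.536, 0.602 and 0.721 reads per exonic base in Ctr liver, more than 94.2%, 95.4% and 97.2% of all genes. Of all genes with a length, the 1007 with 0.4 to 0.8 reads per base in Ctr liver had a median r with the total of -0.72, and the 263 with more had -0.92, while in Ctr cortex the medians were 0.01 in both classes. *Acacb* and *Crat* had r of 0.11 and -0.08 with the total in Ctr liver and 0.62 and -0.07 in SD liver. *Mlycd*, taken within its ranges, had r = -0.60 in Ctr liver and -0.86 in SD liver over the 19 lines low in cortex, which include BXD70, and 0.02 and -0.31 over the 14 lines high in cortex. In cortex the other members' r with the total lay between -0.26 and 0.21. The relations that follow were therefore also run with the log2 library total taken out of both values, a step added after the data were seen.

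**Figure D4:**
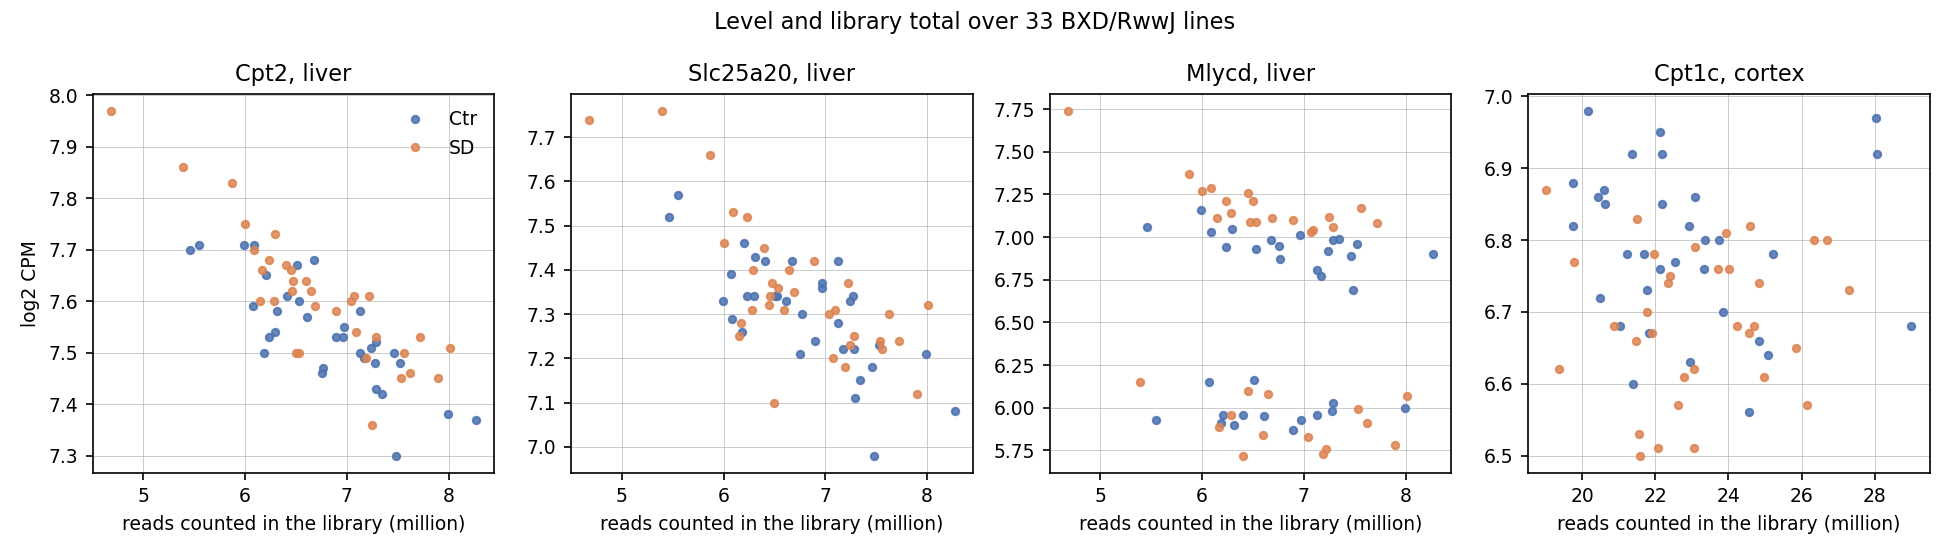
Level in log2 CPM against the counted reads of the library over 33 lines, in Ctr (blue) and SD (orange), for *Cpt2*, *Slc25a20* and *Mlycd* in liver and *Cpt1c* in cortex. *Cpt2* and *Slc25a20* fall with the total in liver, with r of -0.80 and -0.73 in Ctr, and BXD70 is the SD library with the fewest reads, at 4681101.

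Whether the other members follow *Mlycd* over lines was asked in each tissue for the Ctr level, the SD level and the paired change. Because *Mlycd* levels lie in separate ranges, levels were related within the 19 lines low in cortex and within the 14 lines high in cortex, with no relation over all lines. In cortex the answer was no at this size of panel. In limma's test of the slope on *Mlycd*, with the range as a covariate for levels, 0 of 6 members and 0% of 14895 genes passed for the Ctr level, the SD level and the change (unadjusted p under 0.05 in 2780, 892 and 1778 genes). Member by member, r lay between -0.47 and 0.27 for Ctr levels and between -0.51 and 0.52 for SD levels. For changes over all 33 lines it lay between -0.07 and 0.15. Of these 30 relations 0 passed over a family of 60 (permutation tests). Within the 19 and the 14 lines the changes had r between -0.45 and 0.49. Their lowest adjusted p was 0.142 over 24 added relations.

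In liver limma found 0 of 6 members and 0% of 14106 genes for the Ctr level (unadjusted p under 0.05 in 2854 genes). With libraries centred on their medians 2809 genes and 3 members passed there, *Cpt1a* (slope 0.69, adjusted p = 0.0022), *Cpt2* (0.76, adjusted p = 0.00109) and *Slc25a20* (0.72, adjusted p = 0.00348), against slopes of 0.47, 0.51 and 0.43 as deposited. For the SD level 3 of 6 members passed, where 40.3% of all genes did, and for the change 3 of 6, where 33.8% did. They were *Acacb*, *Cpt2* and *Slc25a20* each time. Per log2 of *Mlycd*, the SD level fell by 1.07 for *Acacb* (standard error 0.30, adjusted p = 0.00434) and rose by 0.53 for *Cpt2* (0.12, adjusted p = 0.000453) and 0.66 for *Slc25a20* (0.14, adjusted p = 0.000252). Per log2 of *Mlycd* change, that of *Acacb* fell by 0.86 (standard error 0.29, adjusted p = 0.0197), while *Cpt2* rose by 0.29 (0.072, adjusted p = 0.00252) and *Slc25a20* by 0.50 (0.088, adjusted p = 0.000151). So many genes passed that the members' share says little of the group.

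These liver calls changed with the library totals and with BXD70. With the log2 library total as a covariate 0 of 6 members passed for the SD level (adjusted p = 0.503 for *Acacb*, 0.580 for *Cpt2* and 0.276 for *Slc25a20*), and 542 genes in place of 5684. The slopes became -0.46, 0.10 and 0.28. For the change 0 of 6 members passed (adjusted p = 0.508, 0.609 and 0.379), and 0 genes in place of 4763, with slopes of -0.68, 0.12 and 0.27. The change of *Acacb* also did not pass with 37 lines (-0.63, adjusted p = 0.0951). Without BXD70, 1583 genes passed for the SD level and 1585 for the change. *Slc25a20* still passed for the SD level (0.65, adjusted p = 0.0263) and the change (0.44, adjusted p = 0.00688), *Cpt2* for the change (0.28, adjusted p = 0.0252) but not the level (0.45, adjusted p = 0.0527), and *Acacb* for neither (-0.35, adjusted p = 0.564, and -0.74, adjusted p = 0.147). *Cpt1a* passed without BXD70, with slopes of 0.47 for the SD level (adjusted p = 0.0388) and 0.40 for the change (adjusted p = 0.0111), against -0.04 and 0.14 with it. With libraries centred on their medians 3847 genes rose and 2475 fell with the *Mlycd* SD level, against 2881 and 2803 as deposited, and 3284 and 1656 with its change, against 2388 and 2375.

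Of the 60 member relations to *Mlycd*, 48 of levels within a range and 12 of changes over all lines, 7 passed, 4 of levels and 3 of changes, all in liver. Among the 19 lines low in cortex, whose *Mlycd* is high in liver, the Ctr level of *Mlycd* went with that of *Cpt1a* (r = 0.67, permutation p = 0.00224, adjusted p = 0.0230, rho = 0.49, p = 0.0348) and of *Cpt2* (r = 0.65, permutation p = 0.0023, adjusted p = 0.0230, rho = 0.58, p = 0.0111). Without the 2 lines farthest from the median, r fell to 0.23 and 0.39, so both rest on those lines. The SD level went with that of *Cpt2* (r = 0.82, permutation p = 7e-05, adjusted p = 0.0021, rho = 0.59, p = 0.00977) and of *Slc25a20* (r = 0.75, permutation p = 0.00029, adjusted p = 0.00435, rho = 0.55, p = 0.016), with r = 0.53 and 0.43 without the 2 farthest lines. Among the 14 lines high in cortex 0 relations of levels passed.

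Over all 33 lines the liver change of *Mlycd* went with that of *Slc25a20* (r = 0.73, permutation p = 1e-05, adjusted p = 0.0006, rho = 0.61, p = 0.00019) and of *Cpt2* (r = 0.61, permutation p = 0.00015, adjusted p = 0.003, rho = 0.60, p = 0.00034), with r = 0.63 and 0.55 without the 2 farthest lines. It went against that of *Acacb* (r = -0.47, permutation p = 0.00543, adjusted p = 0.0465, rho = -0.45, p = 0.00907), with r = -0.26 without the 2 farthest lines. By rho, 2 of the 7 relations passed over the family, the changes with *Cpt2* and *Slc25a20* (adjusted p = 0.0102 each). Within the 19 lines low in cortex, the changes of *Mlycd* and *Slc25a20* had r = 0.83 (permutation p = 7e-05, adjusted p = 0.00132 over 24 added relations, rho = 0.59, p = 0.00873) and those of *Mlycd* and *Cpt2* r = 0.76 (permutation p = 0.00011, adjusted p = 0.00132, rho = 0.78, p = 0.00015). Within the 14 lines high in cortex these were 0.59 and 0.56 (adjusted p = 0.142 each).

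With the library total taken out 0 of the 60 relations passed. Those of the liver change became r = 0.42 for *Slc25a20* (adjusted p = 0.332), 0.25 for *Cpt2* (adjusted p = 0.628) and -0.29 for *Acacb* (adjusted p = 0.622), and those of the SD level 0.34 for *Cpt2* and 0.28 for *Slc25a20* (adjusted p = 0.628 and 0.689). Of the added relations, that of the changes of *Mlycd* and *Slc25a20* in the 19 lines passed with the total taken out (r = 0.69, adjusted p = 0.0238). Without BXD56, BXD70 and BXD90, which all lie among the 19 lines, 7 of 60 relations passed, where the SD level and change of *Cpt1a* came in, and the change of *Acacb* and the SD level of *Slc25a20* went out. In SD liver *Mlycd* and *Cpt1a* then had r = 0.73 (adjusted p = 0.0382) against -0.20 with these lines (adjusted p = 0.661). The change of *Cpt1a* had r = 0.52 (adjusted p = 0.0382) against 0.22, that of *Acacb* -0.36 (adjusted p = 0.222), and the SD level of *Slc25a20* 0.63 (adjusted p = 0.0683).

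**Figure D5:**
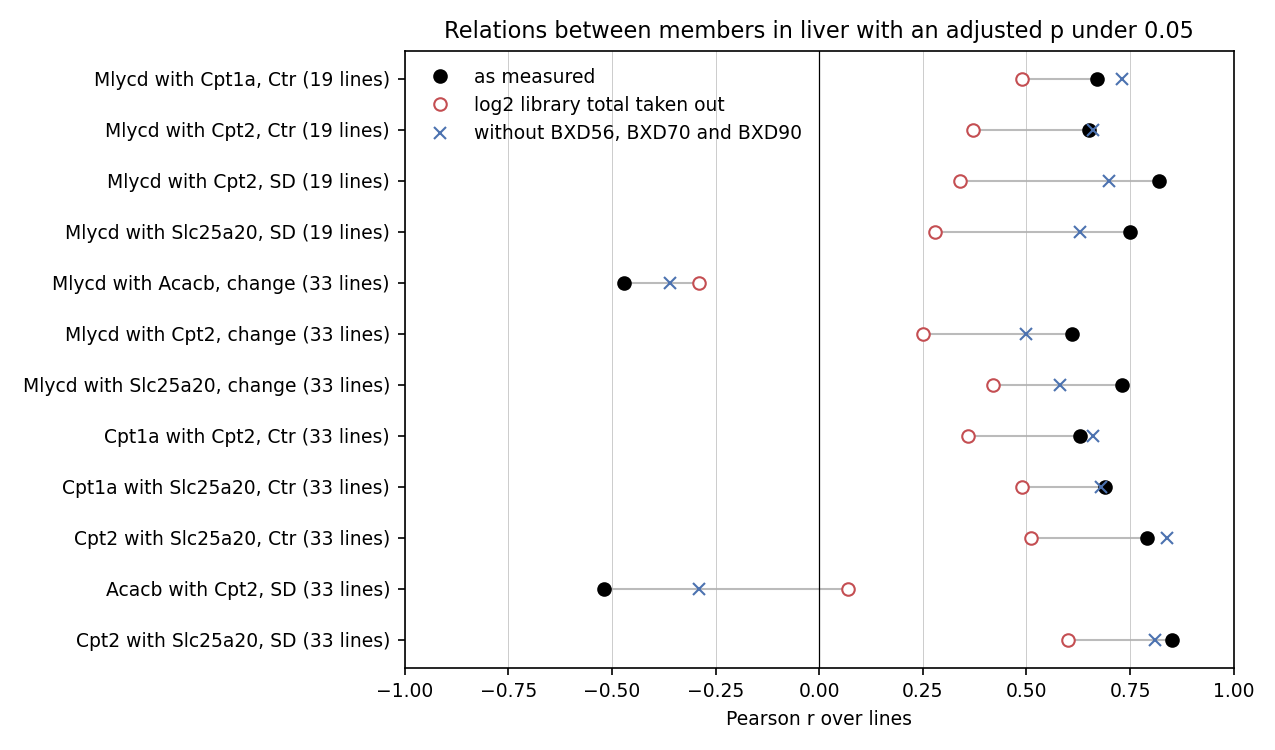
Pearson r over lines for the liver relations with an adjusted p under 0.05 (black), with the log2 library total taken out (red circles) and without BXD56, BXD70 and BXD90 (blue crosses). Taking out the total moves the relations with *Mlycd* towards 0, the highest of the 7 that passed in the family of 60 being 0.49. It lowers that of *Cpt2* and *Slc25a20* from 0.79 to 0.51 in Ctr and from 0.85 to 0.60 in SD.

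Among the members other than *Mlycd*, 6 of 60 pairs passed, with an absolute r of at least 0.49. This was 0 of 15 pairs in Ctr cortex, 1 in SD cortex, 3 in Ctr liver and 2 in SD liver, where 4.80%, 1.87%, 5.02% and 13.2% of all gene pairs reached that r. The inner-membrane pair was the closest: in liver *Cpt2* and *Slc25a20* had r = 0.79 in Ctr (permutation p = 1e-05, adjusted p = 0.0003, rho = 0.75, p = 2e-05) and 0.85 in SD (permutation p = 1e-05, adjusted p = 0.0003, rho = 0.78, p = 1e-05). Without the 2 farthest lines r was 0.80 and 0.76. With the library total taken out r was 0.51 (adjusted p = 0.0243) and 0.60 (adjusted p = 0.0099), so the pair still passed in both conditions. By rho with *Slc25a20* in liver, *Cpt2* ranked 18 among all genes in Ctr and 17 in SD, but by rho with *Cpt2*, *Slc25a20* ranked 603 and 368, so many genes were as near to *Cpt2*. *Cpt1a* went with *Slc25a20* in Ctr liver (r = 0.69, permutation p = 2e-05, adjusted p = 0.0004, rho = 0.61, p = 0.00021, r = 0.67 without the 2 farthest lines), also with the total taken out (0.49, adjusted p = 0.0297). *Cpt1a* and *Cpt2* had r = 0.63 in Ctr liver (permutation p = 0.0001, adjusted p = 0.0015, rho = 0.56, p = 0.00085, r = 0.47 without the 2 farthest lines), which did not pass with the total taken out (0.36, adjusted p = 0.139). In SD liver these pairs had r = 0.27 and 0.23, which did not pass. Their rho was 0.49 each over the same lines and passed narrowly (adjusted p = 0.0493 each by rho). Without BXD56, BXD70 and BXD90 r was 0.64 (adjusted p = 0.0029) and 0.69 (adjusted p = 0.001).

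*Acacb* and *Cpt2* had r = -0.52 in SD liver (permutation p = 0.00282, adjusted p = 0.0338, rho = -0.32, p = 0.0711). It was -0.22 without the 2 farthest lines, -0.29 without BXD56, BXD70 and BXD90 (adjusted p = 0.326) and 0.07 with the total taken out, so it rests on few lines and turned with the total. In cortex *Cpt1a* and *Slc25a20* had r = 0.49 in SD (permutation p = 0.00356, adjusted p = 0.0356, rho = 0.41, p = 0.0202), with 0.54 without the 2 farthest lines and an adjusted p of 0.135 by rho. It did not pass without BXD56, BXD70 and BXD90 (0.43, adjusted p = 0.108), whereas *Cpt2* and *Slc25a20* in SD cortex (0.51, adjusted p = 0.0295) and *Cpt1a* and *Crat* in SD liver (0.55, adjusted p = 0.0132) passed without these lines and not with them (adjusted p = 0.0697 and 0.0879). *Crat* passed with no other member as measured, and in liver with the total taken out it went with *Cpt2* (0.47 in Ctr, 0.64 in SD) and *Slc25a20* (0.55 in both).

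The genes most like *Cpt1a* over the Ctr levels of the 33 lines were named by Spearman's rho as a description. In liver they were *Acad11*, an acyl-CoA dehydrogenase (rho = 0.79 in Ctr, 0.67 in SD), *C4b* (0.78, 0.47), *Abca6* (0.77, 0.07), *Entpd5* (0.75, 0.49) and *F5* (0.75, 0.43). In cortex they were *Apcdd1* (0.71 in Ctr, 0.17 in SD), *Pla2g4a* (0.67, -0.10), *Abcg2* (0.63, 0.48), *Anxa5* (0.61, 0.42) and *Plau* (0.59, 0.00). With the library total taken out, the liver rho values became 0.76 and 0.78 for *Acad11*, 0.73 and 0.38 for *C4b*, 0.70 and 0.34 for *Abca6*, 0.65 and 0.45 for *Entpd5*, and 0.51 and 0.55 for *F5*. The libraries of a table share their scaling, and these rho values were picked as the highest among all genes.

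The paths that feed the shuttle and use its product were described by fixed lists. Over all genes the same test called 26% up and 27.9% down in liver, and 36.6% up and 39.6% down in cortex, which stand beside the counts below. Among 8 genes of malonyl-CoA synthesis and use, 6 fell in liver and 0 rose, with a median of -0.11 log2 against -0.00152 over all genes. *Fasn*, fatty acid synthase, fell by 0.53 (standard error 0.049, adjusted p = 1.48e-12, in 38 of 39 pools), the carboxylase activator *Mid1ip1* by 0.36 (standard error 0.033, adjusted p = 5.71e-13, in 38) and *Acly*, which makes cytosolic acetyl-CoA, by 0.29 (standard error 0.031, adjusted p = 1.3e-10, in 34). *Acacb* thus rose in liver while most of these genes fell. In cortex 1 rose and 5 fell, with a median of -0.11: the elongase *Elovl6* rose by 0.33 and *Acsf3*, a malonyl-CoA synthetase of mitochondria, fell by 0.25, each in 39 of 39 pools. Of the 6 listed subunits of the AMP-activated kinase, which restrains the carboxylases, 3 rose and 3 fell in cortex, *Prkab1* fell by 0.57 in 39 of 39 pools, and in liver 2 fell and 0 rose, *Prkab1* by 0.16 and *Prkag2* by 0.13.

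Of 15 genes of mitochondrial beta-oxidation, the path after *Cpt2*, 6 rose and 0 fell in liver (median 0.03 log2), fewer calls than the 53.9% of all liver genes, led by *Eci2* (0.13, standard error 0.025, adjusted p = 1.93e-05, higher after SD in 31 of 39) with *Hadhb* and *Eci1* at 0.07 each. In cortex 3 rose and 5 fell (median 0.00), where 76.3% of all genes were called, from *Hadhb* (0.12) to *Echs1* (-0.24, lower in 39 of 39 pools). Of 5 acyl-CoA synthetases, which make the substrate of *Cpt1a*, 1 rose and 4 fell in liver (median -0.19), *Acsl1* by 0.07 and *Acsl3* with -0.73, and 3 rose and 1 fell in cortex (median 0.09), where *Acsl3* rose by 0.23 and *Acsl1* fell by 0.24. *Acsl1* and *Acsl3* thus had opposite signs in each tissue, and opposite again between the tissues.

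Carnitine enters cells through *Slc22a5*, which rose by 0.51 log2 in liver (standard error 0.037, adjusted p = 5.88e-16, higher after SD in 39 of 39), while the related *Slc22a4* fell by 0.52 (standard error 0.040, adjusted p = 7.05e-15, in 39 of 39). Of the 6 listed genes of carnitine supply, 2 rose and 1 fell in liver (median 0.00), and 1 rose and 4 fell in cortex (median -0.15). In cortex *Crot*, the peroxisomal carnitine octanoyltransferase, rose by 0.36 in 39 of 39 pools. There *Slc22a21*, at a low mean level of 0.21 log2 CPM in Ctr, fell by 0.54 in 33 of 39 pools (standard error 0.085, adjusted p = 1.93e-07, limma). *Slc22a5* fell by 0.16 in 37. PPAR-alpha is known to drive *Cpt1a* and other oxidation genes of liver. Of its 14 listed genes, itself included, 7 rose and 2 fell in liver (median 0.08, with 53.9% of all genes called), with *Angptl4* (0.98) and *Acot1* (0.95) up in 39 of 39 pools and *Pdk4* down (-0.95, in 37 of 39). In cortex 9 of the 14 were listed, and 7 rose and 2 fell (median 0.18, with 76.3% of all genes called), with *Angptl4* at 0.59 and *Ehhadh* at -0.42. The rise of *Cpt1a* in liver, 0.12, stood between these.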

How the data were processed

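Cortex and liver RNA of BXD lines was measured in 172 libraries, of which 156 were used and 16 of 4 BXD/TyJ lines entered alternatives. Per their methods and processing notes, the authors aligned stranded mRNA reads to mm9 with STAR, counted them by strand on RefSeq genes with HTSeq, left out low genes, scaled the counts with edgeR and deposited log2 CPM values with a small prior count. Whole reads were recovered from them (100% of values within 0.02 of a read). They gave library totals and the input of voom, which called 11383 genes in cortex and 7724 in liver.

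Paired changes were tested with limma 3.58.1 in R 4.3.3, with the line as a block and a variance trend, and Benjamini-Hochberg adjustment over all genes of a table. The authors name no block. Pools of a line deviated together (r at least 0.299 in cortex and 0.169 in liver, medians 0.614 and 0.475, over 0.1 in 39 of 39 pairs). Parents were compared with condition as a covariate, and without the pairing of a pool's Ctr and SD libraries. Slopes on *Mlycd* used the 33 BXD/RwwJ lines, with the range of *Mlycd* as a covariate where a gap wider than the spread within ranges left at least 6 lines on each side. Correlations used two-sided permutation tests with 100000 resamples (Python 3.11.15, scipy 1.17.1), adjusted within families of 60, 16, 16 and 60 relations. The paired fit and the permutation test were tested on simulated data.

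Lengths came from the mm9 annotation and promoters from RefSeq. Members, 6 lists of 56 pathway genes, 11 marker lists and tests were chosen with earlier results of these data known. The genes named of each list were taken from the up to 3 called genes with the largest rise and fall per tissue. The 5 genes most like *Cpt1a* were named too. Those most like *Mlycd* are not given, since its levels lie in separate ranges. Library totals, libraries left out, changes within ranges and the strain difference between tissues were added after seeing the data.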

Additional observations from a re-analysis of the deposited data

Results flagged for a closer look

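The response of *Cpt1a* to SD differed between the tissues, by 0.13 log2 in liver minus cortex (adjusted p = 9.11e-05, limma, 32 of 39 pools). The difference of DBA/2J from C57BL/6J also differed between the tissues for *Mlycd*, by -2.56 log2 in liver minus cortex (adjusted p = 0.000181), and for *Crat*, by -0.49 (adjusted p = 0.0486), each over 4 libraries a strain in each tissue. The *Mlycd* value passed in all alternatives, whereas that of *Crat* is borderline: it passed in 1 of 9, and the liver difference it rests on turned sign between Ctr pools (0.19) and SD pools (-0.26). The causes were not tested.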

How the results depend on the processing

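With no replicate block, so without the pairing of a line's pools, 1 member in place of 4 passed after SD in liver, where *Mlycd*, *Acacb* and *Cpt2* were lost (adjusted p = 0.611, 0.121 and 0.0604), 6229 genes passed in liver and 10191 in cortex, and *Crat* was lost in cortex (adjusted p = 0.367). The block changed no other member's call. With all 43 pools 5 members passed in cortex. Without BXD79, BXD85 and BXD101, 3 members passed in cortex and 4 in liver, as in the main fit. Of the members' values after SD, 85 in cortex and 84 in liver kept direction and side of the threshold over the alternatives, 2 and 4 lost it, and 4 and 3 gained it.

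For liver minus cortex 2 members passed in the 33 lines, and values near 0 changed sign: *Crat* to 0.01 in the 33 lines, *Mlycd* to -0.02 with 43 pools, -0.01 with the library totals as covariate and -0.05 without the 4 pools apart, and *Slc25a20* to 0.00 with median-centred libraries.

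Between the parents in cortex, leaving out a pool at a time gave 2398 to 3417 genes and 2 to 3 members. Ctr pools alone gave 2344 genes and 2 members, SD pools alone 1798 and 2, the library total as covariate 2396 and 2, and the Ctr and SD library of a pool averaged 2875 and 2, against 3804 and 4. In liver the range was 1433 to 1767 genes, with 1583 in Ctr pools alone, 3420 in SD pools alone and 1486 with the total, against 2524. The *Crat* difference in liver lay between -0.19 and 0.12 with a pool left out, at 0.19 in Ctr pools alone and 0.14 with the total. For the strain difference in liver minus cortex, 501 to 663 genes passed with a pool left out, 237 in Ctr pools alone, 294 in SD pools alone and 746 with the Ctr and SD library of a pool averaged, against 1430, and 1 member in place of 2 in each of these and with the totals.

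For slopes on *Mlycd* in cortex, 375 genes passed for the Ctr level without BXD56 and 450 for the change with the range as a covariate, against 0. For the liver Ctr level 2809 genes (2510 up, 299 down) and 3 members passed with median-centred libraries, and 1 gene each with 37 lines and with 30 lines without sublines. With the total as covariate 542 genes and 0 members passed for the liver SD level, and 0 genes and 0 members for the change. Without BXD70 the genes were 1583 and 1585. The *Cpt1a* slope of -0.04 on the SD level became 0.11 with median-centred libraries and 0.47 without BXD70.

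Of the relations to *Mlycd*, 2 passed by Spearman's rho and 0 with the total taken out. Of pairs of other members, 11 passed with median-centred libraries and 10 with the total taken out, where *Acacb* and *Cpt2* in SD liver turned to 0.07. The causes of these shifts were not tested. Alternatives with library totals, libraries left out or the range added, averages of a pool, and those of the strain difference in liver minus cortex were chosen after seeing the data. Liver depth limits *Cpt1c*, on 17 reads or fewer, and in cortex *Acacb* and *Cpt2*, on 77 to 247 reads, had the fewest reads of the members at the median.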

Other observations

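Other marker lists moved as follows, and their part in the members' changes was not tested. In liver the 4 B cell markers, led by *Cd79b*, had a median summed level of 12.3 CPM in Ctr and 5.17 in SD and rose in 0 of 39 pools, and the 2 listed neuronal markers, led by *Syt1*, 68.0 and 38.2 CPM, also up in 0 of 39. Hepatocyte markers stood at 2440 and 2530 CPM (up in 23), and the 3 microglial markers, which macrophages share, at 123 and 130. *Cela1*, the only listed marker of exocrine pancreas, was at 60.6 and 56.3 CPM in liver. In cortex microglial markers stood at 198 and 188 CPM (up in 4 of 39 pools), oligodendrocyte markers at 2480 and 2560 (up in 18) and endothelial markers at 108 and 110 (up in 25). Choroid plexus markers in cortex, of which *Ttr* and *Kl* were listed, were at 19.3 and 14.4 CPM and reached 230 in a C57BL/6J Ctr pool and 399 in BXD79 after SD.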
